A study of Mus musculus with 8 samples.

Results

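Markers of the endothelial cell, which lines blood vessels, were followed through single mouse ovarian follicles of 2 stages and 2 sources. The 10 genes were chosen by name as well-known markers of this cell type, and all 10 are among the 21997 genes listed for both sources and among the 17925 that passed the filter on low counts. They are the adhesion molecules Pecam1 and Cdh5, the surface proteins Emcn, Ecscr and Plvap, the receptors Kdr, Flt1, Tek and Tie1, and the co-receptor Eng. Follicles were preantral (PF, before the fluid-filled cavity forms) or small antral (SAF), from ovaries of C57BL/6 mice. They came either from wild type animals (WT) or, per the labels, from transplanted FGSCs, female germline stem cells (TF). Which part of a TF follicle arose from the transplant is not stated in the labels, and neither are the age of the mice and the hosts. Each of the 4 groups (PF-WT, SAF-WT, PF-TF and SAF-TF) had 2 libraries of polyA RNA, each from a single follicle freed with a hypodermic needle. No label ties follicles to individual mice, so p-values measure only the spread between these follicles.

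A preantral follicle is an oocyte wrapped in granulosa cells behind a basement membrane that vessels do not cross. As the follicle grows, capillaries spread in the theca, the layer outside that membrane. VEGF ligands act on Kdr and Flt1, angiopoietins act on Tek, and junction proteins such as Cdh5 and Pecam1 hold neighbouring endothelial cells together. A follicle freed by needle can carry more or less of its theca and nearby stroma, so endothelial RNA in it is read against all RNA of the follicle. Fewer endothelial cells and less RNA per endothelial cell cannot be told apart in such libraries.

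Total counts were 7656108 to 9805287 per library, and a count of 0 allows up to 3 counts, or 0.301 to 0.393 CPM (the normalised read count, per library size scaled with TMM factors), for counting error only. Libraries differed in more than their labels. The summed level of 15 oocyte genes was 756 CPM in SAF-WT replicate 1 and 3722 CPM in SAF-WT replicate 2. That of 13 leukocyte and platelet genes was 75.3 and 453 CPM in the PF-WT libraries, and that of the erythroid genes 13.5 and 339 CPM in the PF-TF libraries. Each gene test given here was also run without each library in turn, and losses of a call are given with the results.

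Positions are those of RefSeq on GRCm38. Pecam1 lies at chr11:106654213-106715281, Cdh5 at chr8:104101613-104144504, Plvap at chr8:71497753-71511806 and Emcn at chr3:137341062-137431069. Kdr and Flt1 lie on chromosome 5, at chr5:75932827-75979072 and chr5:147561604-147726438. Tek and Tie1 lie on chromosome 4, at chr4:94739086-94874976 and chr4:118471191-118489849. Eng lies at chr2:32646595-32682669. Exons of Eng overlap those of Fpgs on the opposite strand. The sources used here do not give the strand setting of the counting, so reads of such overlapping genes may not be told apart.

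ETS factors are transcription factors that act on many endothelial genes, and their sites hold a GGAA core. Records of the RefSeq promoter table (GRCm38.p6) were used for 6 of the 10 genes: Emcn, Eng, Tie1, Tek, Kdr and Flt1. Promoters of Pecam1, Cdh5, Plvap and Ecscr were not searched, so the motif counts below do not cover these genes. The 250 bases before the start site of each record were searched on both strands. These start sites need not be the gene's outer end: the Emcn window reaches into the gene span given above, and those of Tek, Kdr and Flt1 lie partly or wholly inside it. CAGGAA was in 3 of the 6 (Emcn, Tek and Tie1) and in 25.7% of the table's 32851 promoters. CCGGAA was in 1 (Kdr) and in 12.0% of the table. Emcn, Eng and Tie1 are printed because Emcn and Eng carried large stage effects and Tie1 had no detectable one. They stand 5′ to 3′ on the gene's own strand, with each CAGGAA (or its reverse complement TTCCTG) in capitals. The windows are chr3:137340828-137341077 (plus strand), chr2:32646345-32646594 (plus strand) and chr4:118489850-118490099 (minus strand).
Emcn: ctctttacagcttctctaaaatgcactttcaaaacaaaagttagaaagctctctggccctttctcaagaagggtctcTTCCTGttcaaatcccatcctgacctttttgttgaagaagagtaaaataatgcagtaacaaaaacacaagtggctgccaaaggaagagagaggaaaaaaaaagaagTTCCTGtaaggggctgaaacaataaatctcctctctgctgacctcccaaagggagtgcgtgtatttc
Eng: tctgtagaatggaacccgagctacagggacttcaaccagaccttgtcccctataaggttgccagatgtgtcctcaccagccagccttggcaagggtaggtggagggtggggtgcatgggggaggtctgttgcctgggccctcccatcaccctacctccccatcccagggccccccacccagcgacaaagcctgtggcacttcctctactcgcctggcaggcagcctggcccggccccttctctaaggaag
Tie1: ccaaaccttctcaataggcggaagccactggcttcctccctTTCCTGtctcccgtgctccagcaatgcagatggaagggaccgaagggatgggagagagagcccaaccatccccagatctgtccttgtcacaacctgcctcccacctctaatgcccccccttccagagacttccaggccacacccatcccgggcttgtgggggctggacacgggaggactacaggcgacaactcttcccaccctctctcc
The Emcn window holds 2 such matches, the Tie1 window 1 and the Eng window 0. The GATA letters AGATAA were in 0 of the 6 windows and in 9.99% of the table, and the KLF letters CACCCA in 2 (Eng and Tie1) and in 19.3%. A match is a string of letters and not a known binding site.

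In sum, transcripts of these genes were scarce in preantral follicles and more abundant in small antral ones. Their summed level was 36.7 and 27.4 CPM in the PF-WT libraries and 20.9 and 21.1 CPM in the PF-TF libraries. It was 221.1 and 190.7 CPM in SAF-WT, and 111.9 and 73.9 CPM in SAF-TF. The 2 stages did not overlap in either source, and neither did the 2 sources at either stage. Most of the sum in SAF-WT came from Emcn and Ecscr, which together made up 85.3% and 81.4% of it. In SAF-TF they made up 44.6% and 59.6%, in PF-WT 21.4% and 12.1%, and in PF-TF 13.2% and 3.32%. Without Emcn and Ecscr, the other 8 genes summed to 28.8 and 24.0 CPM in PF-WT, 32.4 and 35.5 CPM in SAF-WT, 18.1 and 20.4 CPM in PF-TF, and 62.1 and 29.8 CPM in SAF-TF.

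**Figure D1:**
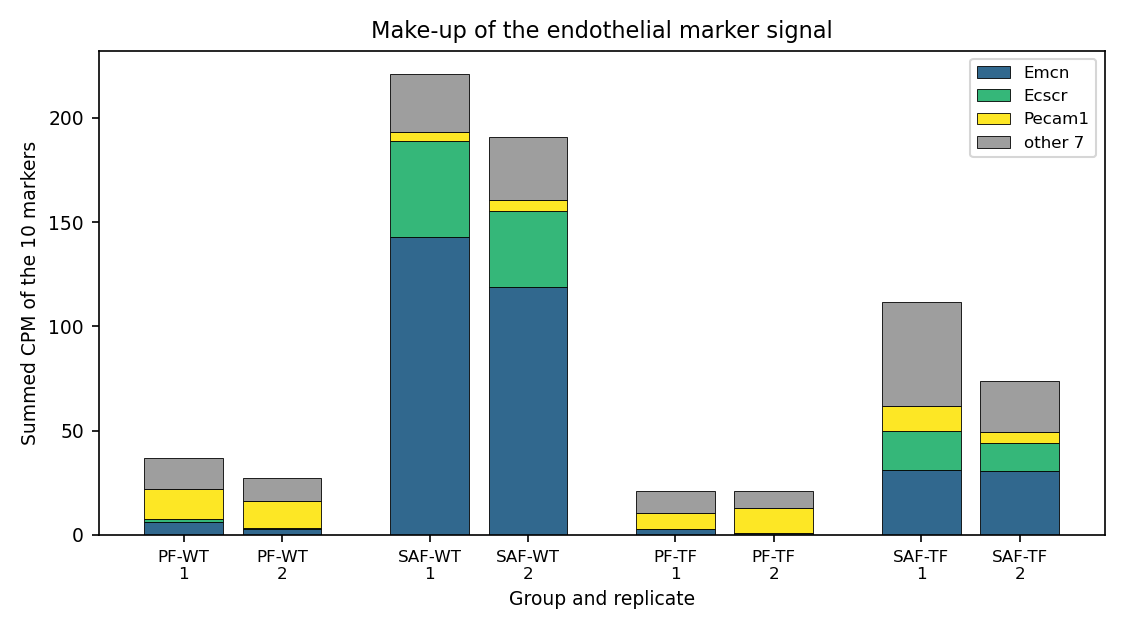
Summed CPM of the 10 genes in each library as stacked bars, split into Emcn, Ecscr, Pecam1 and the other 7 genes. The sums run from 20.9 to 36.7 CPM in the PF libraries and from 73.9 to 221.1 CPM in the SAF libraries, and Emcn and Ecscr fill most of the SAF-WT bars.

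**Figure D2:**
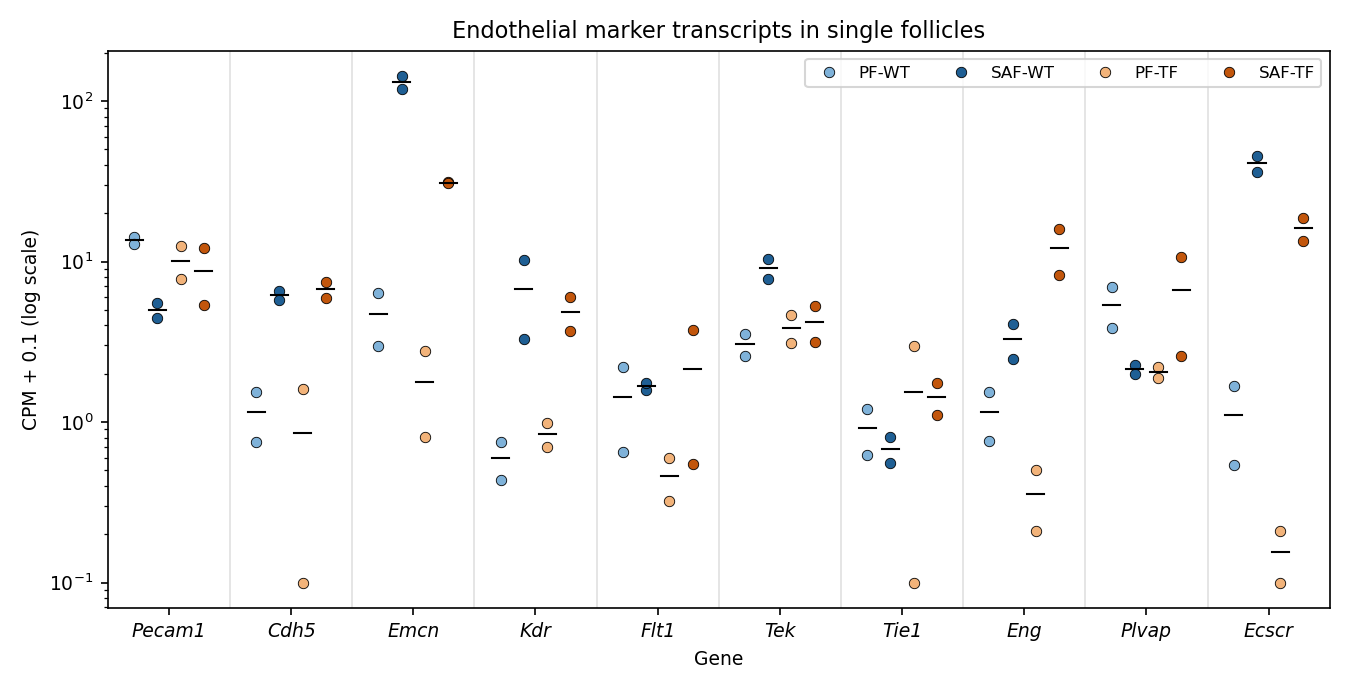
Level of each of the 10 endothelial genes (CPM + 0.1, log scale) in each library, with the 4 groups side by side, 1 point per library and a bar at each group's mean. Emcn and Ecscr stood higher in all 4 SAF libraries than in all 4 PF libraries, while Pecam1 did not.

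Per kilobase of the longest GENCODE transcript, the order of the genes differed between the groups. In PF-WT, Pecam1 was first with a mean of 3.91 CPM per kilobase, ahead of Plvap with 2.66 and Emcn with 1.30, and Kdr was last with 0.083, with values that overlapped those of Flt1. In SAF-WT, Emcn (37.2 CPM per kilobase) and Ecscr (36.7) led, with values that overlapped, and stood apart from the next gene, Tek, with 1.93. In PF-TF, Pecam1 led with 2.92 CPM per kilobase, apart from Plvap with 0.975, and Ecscr was last with 0.050; from Plvap down, each gene's libraries overlapped the next. In SAF-TF the order was Ecscr (14.3 CPM per kilobase), Emcn (8.79), Eng (3.50), Plvap (3.28), Pecam1 (2.51), Cdh5 (1.65), Tek (0.881), Kdr (0.805), Tie1 (0.314) and Flt1 (0.295). The libraries of neighbours in this order overlapped from Eng through Cdh5, between Tek and Kdr, and between Tie1 and Flt1, so their order is not set. Cdh5, the cadherin of endothelial junctions, gives a scale for these levels. Emcn per kilobase was 25.3 and 23.8 times Cdh5 in the SAF-WT libraries and 4.81 and 5.96 times in the SAF-TF libraries. Ecscr per kilobase was 25.5 and 22.9 times Cdh5 in SAF-WT and 9.10 and 8.14 times in SAF-TF. The ratio of Emcn and Ecscr to Cdh5 was thus higher in both SAF-WT libraries than in both SAF-TF libraries.

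In the comparison of stages within WT follicles, Emcn, Ecscr, Kdr and Tek rose from PF to SAF and Pecam1 fell. With edgeR's quasi-likelihood test and Benjamini-Hochberg adjustment over all genes, 4 of the 10 were called higher and 1 lower. Of all genes tested, 35.1% were called, 12.7% higher and 22.5% lower. The median log2 fold change was 1.60 over the 10 genes and -0.20 over all genes. The libraries of the 2 stages did not overlap for 6 genes that were higher in SAF and 2 that were lower, against 30.9% and 40.0% of all genes. In TF follicles, Emcn, Ecscr, Eng, Kdr and Cdh5 rose, that is 5 higher and 0 lower, against 18.2% and 25.0% of all genes (43.2% in either direction). There the median was 2.55 over the 10 genes and -0.08 over all genes, and the libraries did not overlap for 6 genes higher in SAF and 0 lower, against 34.8% and 39.5% of all genes. Emcn, Ecscr and Kdr were called higher in both sources. With 1 of the 4 WT libraries left out, 2 (without SAF-WT replicate 2) or 3 (without any other) of the 10 were called in WT, and 3 were called in TF without SAF-TF replicate 1. With the authors' scale factors, 6 were called higher and 0 lower in WT, with Cdh5 and Eng added and Pecam1 lost, and 6 higher and 0 lower in TF, with Plvap added. With the authors' factors, 6712 of 17925 genes were called in WT, 3594 higher and 3118 lower. DESeq2 called 5 of the 10 higher and 0 lower in each source. The share of all genes called by DESeq2, and with the authors' factors in TF, is not given here. The authors' factors move the median of all genes to 0.14 in WT and 0.27 in TF, and the share of higher calls from 36.0% to 53.5% in WT and from 42.1% to 56.2% in TF. In the authors' deposited table, which compares the stages within each source, 6 of the 10 were called higher in WT and 5 in TF, and 0 lower in either. The share of all genes called there was not counted, so these numbers stand without a background.

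**Figure D3:**
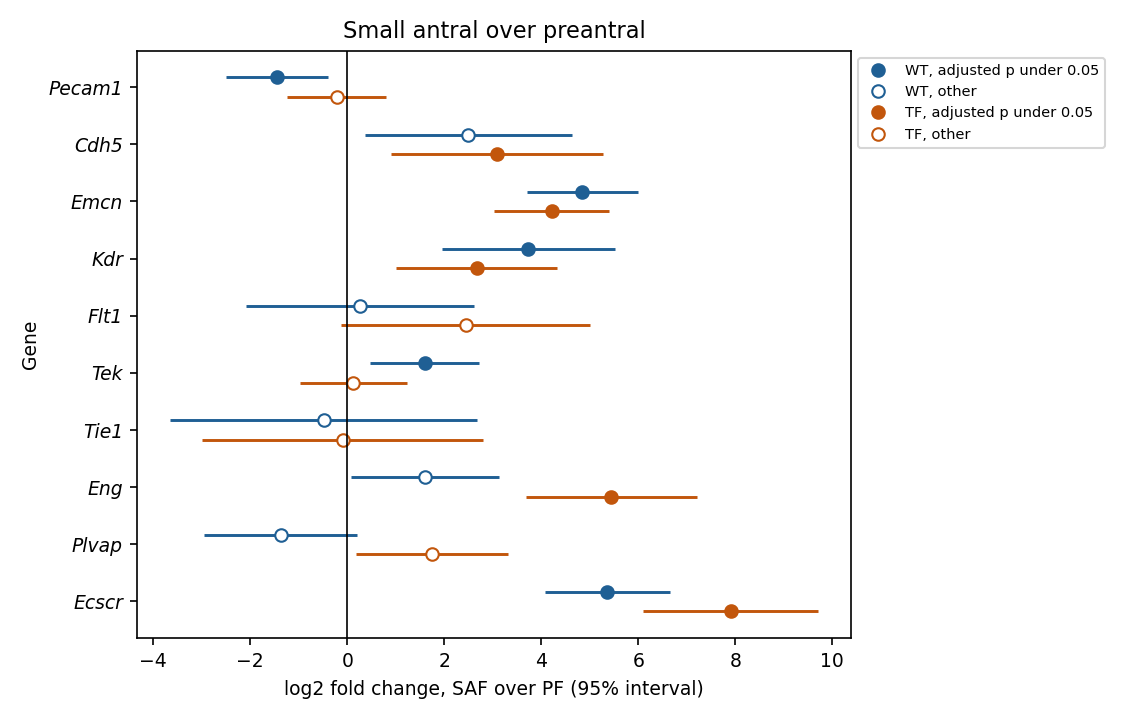
Log2 fold change from PF to SAF for each gene in WT and in TF, with 95% intervals from the edgeR fit, and filled points where the adjusted p was under 0.05. Emcn and Ecscr are far to the right in both sources, Pecam1 is left of 0 in WT, and Eng is right of 0 in TF.

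Pecam1, an adhesion molecule of endothelial junctions that platelets and leukocytes carry as well, stood at 14.2 and 12.7 CPM in PF-WT and at 4.35 and 5.44 CPM in SAF-WT. The wild type stages did not overlap, and Pecam1 fell by 1.46 ± 0.47 (SE) on the log2 scale (edgeR adjusted p = 0.0374). This call was lost with RLE factors (adjusted p = 0.0546), with the authors' scale factors (0.0838), with DESeq2 (0.0517) and when any 1 of the 4 WT libraries was left out (0.0788 to 0.185). In TF, Pecam1 was 7.74 and 12.3 CPM in PF and 12.0 and 5.29 CPM in SAF. Those values overlapped, with a log2 fold change of -0.22 ± 0.46 (edgeR adjusted p = 0.728). The summed leukocyte and platelet markers were 75.3 to 453 CPM in PF-WT and 263 to 310 CPM in SAF-WT. In TF they were 8.52 to 23.2 CPM in PF and 504 to 880 CPM in SAF. The part of these cells, or of other cells of the follicle, in the level of Pecam1 was not tested.

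Cdh5, the cadherin that joins endothelial cells to one another, was at 0.66 and 1.44 CPM in PF-WT and at 6.41 and 5.68 CPM in SAF-WT. Both SAF libraries were above both PF libraries, yet the log2 fold change of 2.50 ± 0.95 (95% interval 0.36 to 4.63) missed the threshold (edgeR adjusted p = 0.0678). It passed with DESeq2 (adjusted p = 0.0193), with the authors' scale factors (0.0370) and in a fit of only the WT libraries (0.0151). In TF, Cdh5 had no count in PF replicate 1 and 1.50 CPM in replicate 2, against 7.36 and 5.86 CPM in SAF. It rose there by 3.08 ± 0.98 (edgeR adjusted p = 0.0285). That call was lost without SAF-TF replicate 1 (adjusted p = 0.101), without SAF-TF replicate 2 (0.0707) and in a fit of only the TF libraries (0.0572).

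Emcn encodes endomucin, a mucin-like surface protein of capillary and venous endothelium. It was at 6.29 and 2.88 CPM in PF-WT and at 143 and 119 CPM in SAF-WT, the highest level reached by any of the 10 genes. In TF it was at 2.65 and 0.70 CPM in PF and at 31.2 and 30.7 CPM in SAF. The stages were far apart in both sources. Emcn rose by 4.85 ± 0.51 in WT (edgeR adjusted p = 1.74e-04) and by 4.22 ± 0.53 in TF (edgeR adjusted p = 2.59e-04) on the log2 scale, and was called under 10 of 10 alternative settings in each source.

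Ecscr (chr18:35713086-35722413), a small surface protein that regulates endothelial movement, was at 1.57 and 0.44 CPM in PF-WT and at 45.6 and 36.2 CPM in SAF-WT. It rose by 5.36 ± 0.57 on the log2 scale (edgeR adjusted p = 1.88e-04). In TF, Ecscr had 1 count in PF, in replicate 1, and 288 counts in SAF, at 18.7 and 13.3 CPM. The ratio of the group totals was 304.6, with a 95% counting interval of 54.2 to 12073, and edgeR called it (adjusted p = 8.75e-05). Both calls held under 10 of 10 alternative settings. The gene whose exons overlap on the opposite strand, 1700066B19Rik, was at 0 to 1.26 CPM in the 8 libraries.

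Plvap, the protein of the diaphragms that span pores of permeable capillaries, went against this pattern in WT. It was at 6.82 and 3.77 CPM in PF-WT and at 2.18 and 1.89 CPM in SAF-WT, so that PF was above SAF in each library. The log2 fold change of -1.37 ± 0.70 missed the threshold (edgeR adjusted p = 0.160). In TF, Plvap was at 1.77 and 2.10 CPM in PF and at 10.5 and 2.48 CPM in SAF. The value of 1.74 ± 0.70 missed it as well (edgeR adjusted p = 0.0707), and SAF-TF replicate 1 stood well above its partner. Without SAF-TF replicate 1 the value was 0.35, and without SAF-TF replicate 2 it was 2.43 and passed (adjusted p = 0.0208).

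Kdr is the main signalling receptor for VEGF-A, and Flt1 binds the same ligand tightly and limits how much of it reaches Kdr. Kdr was at 0.66 and 0.33 CPM in PF-WT and at 3.21 and 10.1 CPM in SAF-WT, and rose by 3.73 ± 0.79 on the log2 scale (edgeR adjusted p = 0.00610). Without SAF-WT replicate 2, the higher library, the change was 2.68 and the call was lost (adjusted p = 0.0525). In TF, Kdr was at 0.88 and 0.60 CPM in PF and at 5.93 and 3.60 CPM in SAF, and rose by 2.67 ± 0.74 (edgeR adjusted p = 0.0166). This call was lost without SAF-TF replicate 1 (adjusted p = 0.0925) and without PF-TF replicate 2 (0.0534). Kdr thus was higher at the antral stage in both sources, at levels of a few CPM.

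Flt1 did not pass the stage test in either source. It was at 2.10 and 0.55 CPM in PF-WT and at 1.49 and 1.66 CPM in SAF-WT, with both SAF values between those of PF (log2 fold change 0.26 ± 1.05, edgeR adjusted p = 0.864). In TF it was at 0.22 and 0.50 CPM in PF and at 3.62 and 0.45 CPM in SAF. The 2 SAF-TF libraries held 33 and 4 counts, and the log2 fold change of 2.44 ± 1.14 missed the threshold (edgeR adjusted p = 0.112). Per kilobase, Kdr was 2.51 and 7.07 times Flt1 in the SAF-WT libraries and 1.90 and 9.31 times in the SAF-TF libraries.

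Tek (Tie2) is the receptor of the angiopoietins, and Tie1 is its partner receptor with no firmly bound ligand of its own. Tek was at 2.49 and 3.43 CPM in PF-WT and at 10.3 and 7.69 CPM in SAF-WT. It rose by 1.59 ± 0.50 on the log2 scale (edgeR adjusted p = 0.0332), a call that was lost when any 1 of the 4 WT libraries was left out (0.0681 to 0.176). In TF, Tek was at 4.53 and 3.01 CPM in PF and at 5.16 and 3.04 CPM in SAF. These values overlapped, with a log2 fold change of 0.12 ± 0.49 (edgeR adjusted p = 0.860). Tie1 was low everywhere, at 0.52 and 1.11 CPM in PF-WT, 0.46 and 0.71 CPM in SAF-WT, 2.88 and 0 CPM in PF-TF, and 1.65 and 1.01 CPM in SAF-TF. No stage effect was detectable for Tie1 at this depth (edgeR adjusted p = 0.811 in WT and 0.959 in TF), with log2 fold changes of -0.49 ± 1.42 and -0.10 ± 1.29.

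Eng encodes endoglin, a co-receptor for BMP9 and other TGF-beta family ligands on endothelium. It was at 1.44 and 0.66 CPM in PF-WT and at 4.01 and 2.37 CPM in SAF-WT. The stages did not overlap, but the log2 fold change of 1.60 ± 0.68 missed the threshold (edgeR adjusted p = 0.0941). In TF, Eng was at 0.11 and 0.40 CPM in PF and at 15.8 and 8.11 CPM in SAF, the highest levels of Eng in any group. It rose there by 5.45 ± 0.79 (edgeR adjusted p = 5.76e-04), under 10 of 10 alternative settings. The PF-TF libraries held 1 and 4 counts of Eng, so the size of this rise is loosely set. Fpgs, whose exons overlap on the other strand, ran the opposite way, at 83.9 and 49.2 CPM in PF-TF and at 7.80 and 4.96 CPM in SAF-TF.

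Between the sources at the preantral stage, none of the 10 genes was called. With edgeR, 0 passed after adjustment, and DESeq2 called 0. After adjustment, edgeR called 0.0669% of all genes higher in TF and 0.151% lower. Before adjustment, 3 of the 10 had an edgeR p under 0.05 (Ecscr, Emcn and Eng). The share of all genes with such an unadjusted p was not counted. The median log2 fold change, TF over WT, was -0.95 over the 10 genes and -0.03 over all genes. The libraries did not overlap for 6 genes that were lower in PF-TF and 0 that were higher, against 26.1% and 22.9% of all genes. For Ecscr the group totals were 16 counts in PF-WT and 1 in PF-TF, a ratio of 18.3 with a 95% counting interval of 2.84 to 766.5 (edgeR adjusted p = 0.0882). Emcn differed by -1.45 ± 0.55 (edgeR adjusted p = 0.176), and Eng by -1.94 ± 0.85 (edgeR adjusted p = 0.234). Without PF-WT replicate 2, Ecscr passed as the 1 called gene (-4.57 ± 0.94, edgeR adjusted p = 0.0367). Kdr, Tek and Tie1 stood at 0.59 ± 0.86, 0.34 ± 0.50 and 0.78 ± 1.34, each with an interval that spans 0.

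Between the sources at the small antral stage, Emcn was lower in SAF-TF, and the other 9 genes missed the threshold. This was 0 of 10 called higher and 1 lower, against 4.61% and 5.34% of all genes (9.96% in either direction). DESeq2 called 2, Emcn and Ecscr, both lower. Emcn stood at 31.2 and 30.7 CPM in SAF-TF and 143 and 119 CPM in SAF-WT (log2 fold change -2.08 ± 0.44, edgeR adjusted p = 0.0206). The call was lost when any 1 of the 4 SAF libraries was left out (adjusted p 0.0800 to 0.167), while the log2 fold change stayed between -2.21 and -1.94. Ecscr (-1.35 ± 0.45, edgeR adjusted p = 0.0828) and Tek (-1.13 ± 0.49, edgeR adjusted p = 0.163) had lower values in TF as well. Eng (1.90 ± 0.61, edgeR adjusted p = 0.0773) and Plvap (1.67 ± 0.70, edgeR adjusted p = 0.153) had higher values. Eng passed in a fit of only the SAF libraries (adjusted p = 0.0189), and Plvap stood at 0.28 without SAF-TF replicate 1. The median over the 10 genes was 0.25, and 0 over all genes. The libraries did not overlap for 3 genes that were higher in SAF-TF (Eng, Plvap and Tie1) and 3 that were lower (Emcn, Ecscr and Tek), against 31.3% and 32.5% of all genes. In SAF-TF, all 10 genes were higher in replicate 1 than in replicate 2, and the share of all genes with that order was not counted.

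**Figure D4:**
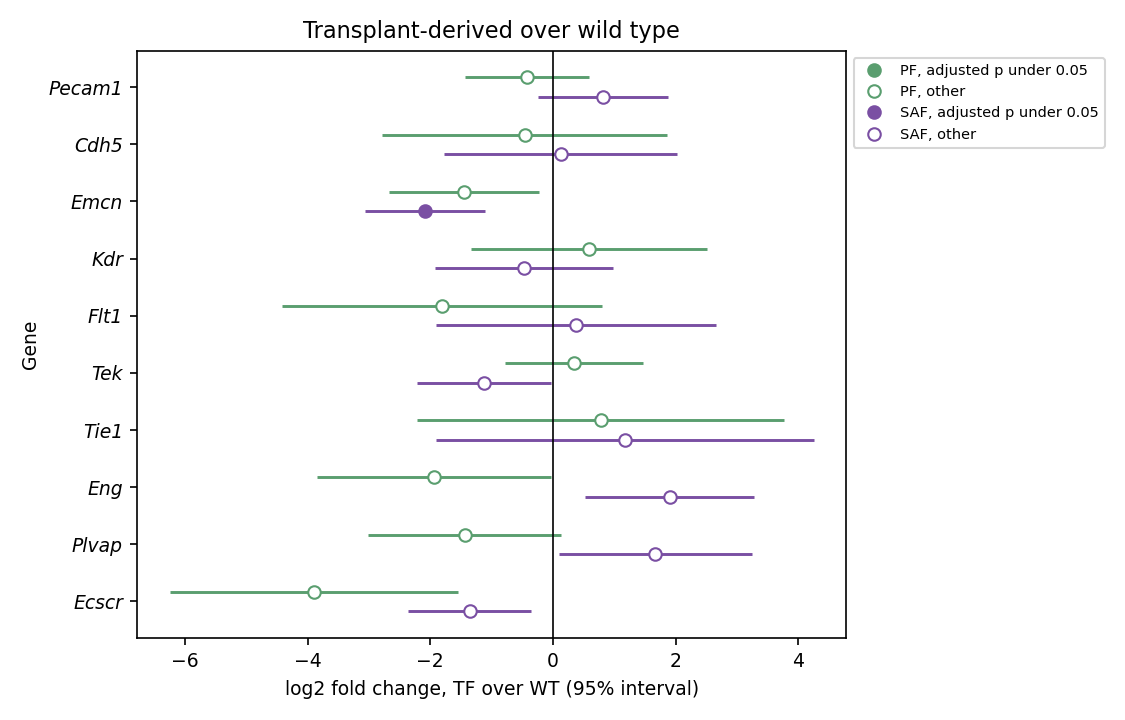
Log2 fold change of TF over WT for each gene in PF and in SAF, with 95% intervals from the edgeR fit, and filled points where the adjusted p was under 0.05. The interval of Eng lies below 0 in PF and above 0 in SAF, and Emcn in SAF is the 1 filled point.

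Levels of blood, stroma and oocyte markers in the same libraries stand beside these results. Summed erythroid markers were 2022 to 5375 CPM in PF-WT and 3183 to 3471 CPM in SAF-WT, against 13.5 to 339 CPM in PF-TF and 307 to 625 CPM in SAF-TF. Summed leukocyte and platelet markers were 263 to 310 CPM in SAF-WT and 504 to 880 CPM in SAF-TF, and 8.52 to 23.2 CPM in PF-TF. Between the sources 0 of 7 erythroid genes tested were called at either stage, against 0.218% of all genes in PF and 9.96% in SAF. Of 11 leukocyte and platelet genes, 0 were called in PF and 2 in SAF. Both were higher in TF, against 4.61% of all genes called higher in SAF. Theca and stroma markers summed to 7426 to 10440 CPM in SAF-WT and 4662 to 10911 CPM in SAF-TF, against 344 to 758 CPM in PF-WT and 85.4 to 197 CPM in PF-TF. Oocyte markers summed to 756 to 3722 CPM in SAF-WT and 296 to 588 CPM in SAF-TF, against 8738 to 10158 CPM in PF-WT and 18732 to 23377 CPM in PF-TF. Of the 17 theca and stroma genes tested, 17 were called higher with the stage in WT and 14 in TF, against 12.7% and 18.2% of all genes, and 0 lower. The part of these cells in the levels of the 10 genes was not tested.

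The test of whether the stage effect differed between TF and WT passed for none of the 10 genes, against 0.904% of all genes. With edgeR, 2 had an unadjusted p under 0.05 (Eng and Plvap), and the share of all genes with such a p was not counted. DESeq2 called 1, Eng (adjusted p = 0.0474). The difference for Eng was 3.84 ± 1.05 on the log2 scale (edgeR adjusted p = 0.124), and that for Plvap 3.11 ± 0.99 (edgeR adjusted p = 0.176). Tek differed by -1.47 ± 0.70 (edgeR adjusted p = 0.357) and Emcn by -0.63 ± 0.71 (edgeR adjusted p = 0.742). Calls of Pecam1 and Tek in WT alone, and of Eng and Cdh5 in TF alone, are therefore not shown to differ between the sources.

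Other genes of the endothelial programme were counted from lists put together by name. Of 46 further endothelial markers tested, 25 rose and 3 fell with the stage in WT, against 12.7% and 22.5% of all genes, with a median of 2.71 (all genes -0.20). In TF 28 rose and 2 fell, against 18.2% and 25.0% of all genes, with a median of 2.63 (all genes -0.08). In WT the count was 15 higher and 2 lower without SAF-WT replicate 1, and 16 and 2 without PF-WT replicate 2. Cav1, the coat protein of caveolae, which stromal cells also make, went from 34.7 and 15.8 CPM in PF-WT to 369 and 353 CPM in SAF-WT (3.84 ± 0.47, edgeR adjusted p = 3.52e-04). Ramp2, the partner of the adrenomedullin receptor in vessels, rose by 2.76 ± 0.33 in WT (edgeR adjusted p = 3.19e-04) and by 1.79 ± 0.32 in TF (edgeR adjusted p = 0.00177). Cd34, a sialomucin of endothelium that some stromal cells carry, rose by 3.72 ± 0.41 in WT and 2.01 ± 0.39 in TF (edgeR adjusted p = 2.23e-04 and 0.00272). Jag1, a Notch ligand that oocytes make as well, fell by 2.07 ± 0.45 in WT and by 3.91 ± 0.50 in TF (edgeR adjusted p = 0.00689 and 2.93e-04). Between the SAF groups, Cd34 was the 1 gene of this list that was called, lower in TF (-1.44 ± 0.37, edgeR adjusted p = 0.0400), against 5.34% of all genes. That call was lost when any 1 of the 4 SAF libraries was left out (adjusted p 0.0941 to 0.208), while DESeq2 called 1 gene of the list higher and 6 lower.

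Of 16 endothelial transcription factors tested, 3 rose and 1 fell in WT, against 12.7% and 22.5% of all genes, and 7 rose and 2 fell in TF, against 18.2% and 25.0%. Without SAF-TF replicate 1, 4 rose and 1 fell in TF. Ets1, an ETS factor, rose by 2.26 ± 0.38 in WT and 1.48 ± 0.37 in TF (edgeR adjusted p = 0.00183 and 0.00955), the second call being lost without SAF-TF replicate 1 (0.0843). Nr2f2, which sets venous identity and also marks theca and stroma, rose by 2.76 ± 0.33 and 3.22 ± 0.34 (edgeR adjusted p = 3.38e-04 and 1.12e-04). Hhex, a homeobox factor, fell, with log2 fold changes of -2.52 ± 0.35 in WT and -2.82 ± 0.34 in TF (edgeR adjusted p = 7.15e-04 and 2.19e-04). Sox7 had 0 counts in PF-WT and 29 in SAF-WT, and 1 count in PF-TF and 44 in SAF-TF.

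Of 17 ligand and related genes tested, 7 rose and 3 fell in WT, against 12.7% and 22.5% of all genes, and 6 rose and 3 fell in TF, against 18.2% and 25.0%. The WT count was 5 higher and 1 lower without SAF-WT replicate 1 and 4 and 2 without PF-WT replicate 2, and the TF count 4 and 1 without SAF-TF replicate 1. Vegfa, the main ligand of Kdr and Flt1, rose by 1.14 ± 0.38 in WT and 1.12 ± 0.38 in TF (edgeR adjusted p = 0.0418 and 0.0370). The WT call was lost without SAF-WT replicate 1 (log2 fold change 0.72, adjusted p = 0.302), without PF-WT replicate 2 (0.162), without the low-count filter (0.0511) and in a fit of only the WT libraries (0.0624). The TF call was lost when any 1 of the 4 TF libraries was left out (0.0592 to 0.198). Angpt1, the activating ligand of Tek, was at 8.26 and 1.33 CPM in PF-WT and at 79.5 and 62.7 CPM in SAF-WT (3.91 ± 0.83, edgeR adjusted p = 0.00609). In TF it rose by 4.27 ± 0.97 (edgeR adjusted p = 0.00637). Angpt2, which competes with Angpt1 for Tek, rose in WT (2.67 ± 0.41, edgeR adjusted p = 0.00115), and missed the threshold in TF (0.70 ± 0.40, edgeR adjusted p = 0.181). Tgfb2 of the same list went the other way, from 455 and 286 CPM in PF-WT to 18.0 and 12.1 CPM in SAF-WT. Its TF levels were 293 and 314 CPM in PF and 16.1 and 11.4 CPM in SAF. Between the SAF groups, 3 of these genes were lower in TF and 0 higher, against 5.34% and 4.61% of all genes. They were Figf, a VEGF of lymphatic and blood vessels (-3.49 ± 0.59, edgeR adjusted p = 0.0104), Angpt2 (-1.77 ± 0.39, edgeR adjusted p = 0.0241) and Thbs2, a matrix inhibitor of vessel growth (-1.93 ± 0.51, edgeR adjusted p = 0.0441). None of these 3 calls held when any 1 of the 4 SAF libraries was left out, with adjusted p of 0.0533 to 0.0768 for Figf, 0.102 to 0.169 for Angpt2 and 0.0958 to 0.182 for Thbs2.

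Of 20 co-receptors and signalling partners tested, 4 rose and 1 fell in WT, against 12.7% and 22.5% of all genes, and 7 rose and 3 fell in TF, against 18.2% and 25.0%. The WT count was 2 higher and 1 lower without SAF-WT replicate 1, and the TF count 3 and 2 without SAF-TF replicate 1 and 4 and 1 without PF-TF replicate 1. Nrp1, a VEGF co-receptor, rose by 1.73 ± 0.30 in WT and 2.36 ± 0.31 in TF (edgeR adjusted p = 0.00231 and 3.48e-04). Tgfbr2, the type II TGF-beta receptor, rose by 2.96 ± 0.64 and 4.26 ± 0.74 (edgeR adjusted p = 0.00670 and 0.00156), the first call being lost without SAF-WT replicate 1 (0.0525). Shb, an adaptor that binds Kdr, fell, with log2 fold changes of -4.21 ± 0.52 and -4.17 ± 0.48 (edgeR adjusted p = 3.61e-04 and 1.61e-04). Of 8 lymphatic endothelial genes, 3 rose and 0 fell in WT, against 12.7% and 22.5% of all genes, and 4 rose and 2 fell in TF, against 18.2% and 25.0%. The WT count was 4 higher and 1 lower without PF-WT replicate 1, and the TF count 2 and 1 without SAF-TF replicate 1 and 3 and 0 without SAF-TF replicate 2. Ccl21a, a chemokine of lymphatic vessels, was at 25.2 and 6.21 CPM in PF-WT and at 359.8 and 162 CPM in SAF-WT (4.07 ± 0.63, edgeR adjusted p = 0.00119). Pdpn and Reln of the same list had lower means in SAF than in PF in both sources. Pdpn went from 19.2 to 11.1 CPM in WT, where the libraries overlapped, and from 31.2 to 6.66 CPM in TF. Reln went from 15.8 to 6.60 CPM in WT and from 13.9 to 4.22 CPM in TF. Mural cells, the pericytes and smooth muscle around vessels, showed 10 of 16 genes higher in WT and 14 of 16 in TF, against 12.7% and 18.2% of all genes, with 0 lower. These counts were 5 without SAF-WT replicate 1 and 8 without SAF-TF replicate 1.

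**Figure D5:**
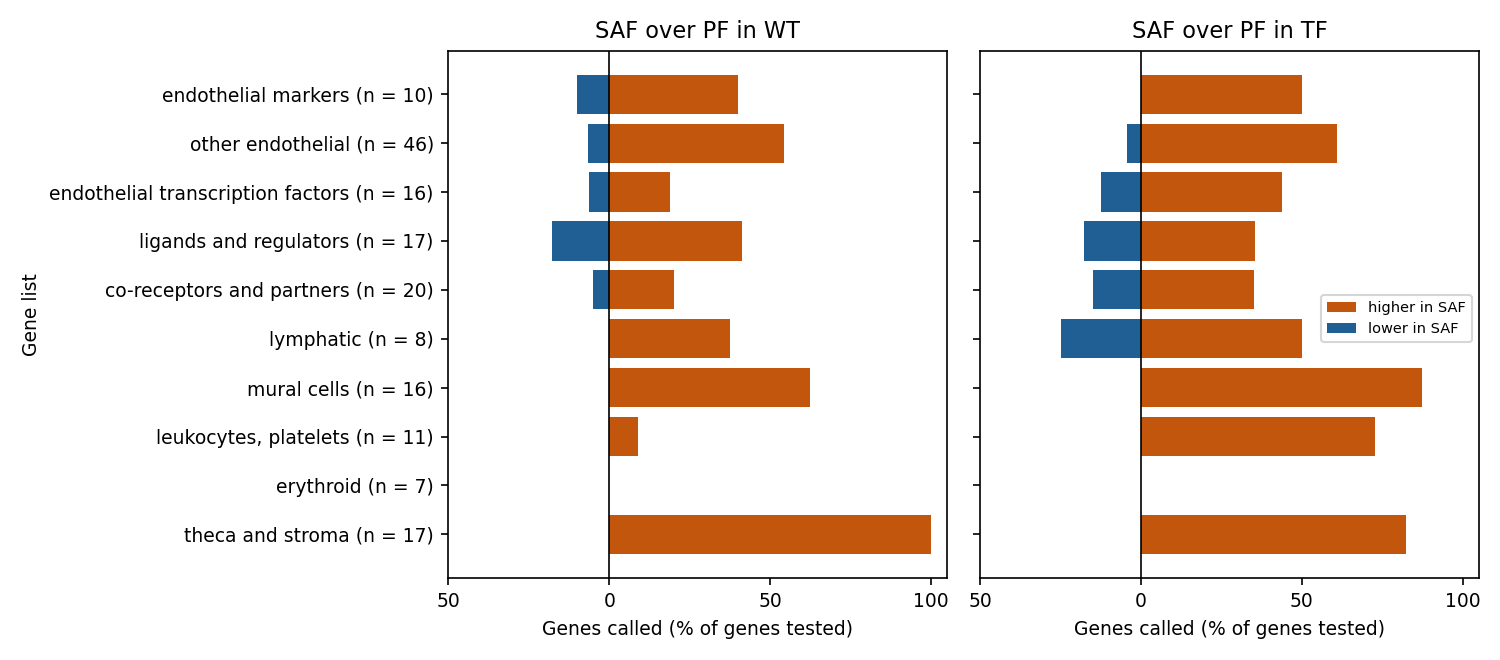
Share of tested genes in each list that were called higher (right) or lower (left) with the stage in WT and in TF, with n the genes tested. The bars of mural genes, of leukocyte and platelet genes and of theca and stroma genes point to the right only.

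Among the 10 genes, some pairs had like patterns over the 8 libraries, measured as the root mean square difference of log2 CPM after each gene's mean was taken off. Emcn and Ecscr were nearest to each other (0.657), as were Pecam1 and Plvap (0.658). Flt1 was nearest to Plvap (0.729), Cdh5 to Eng (0.947), Tek to Flt1 (0.996), Kdr to Tek (1.15) and Tie1 to Tek (1.16). Pecam1 and Ecscr were the farthest apart (3.36). Over 10430 other genes with a mean of at least 5 CPM, those nearest to the average of the 10 were Parva (0.195), Nrp1 (0.249), Stard8 (0.249), Cstb (0.268), Cdk5rap2 (0.272) and Rab13 (0.282). The 10 genes themselves stood farther from that average, from 0.708 for Kdr to 1.90 for Ecscr, so it is not the pattern of any 1 marker. Parva, an actin-linked adaptor of integrin adhesions, was at 30.8 ± 1.78 CPM (SD, n = 2) in PF-WT, 92.5 ± 11.2 in SAF-WT, 18.7 ± 2.79 in PF-TF and 99.1 ± 26.9 in SAF-TF. The libraries share their depth and their mix of cells, so this likeness is a description.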

How the data were processed

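PolyA RNA of single follicles was made into cDNA libraries with a SMARTer kit for low input, per the labels' protocols. Alignment used HISAT2 2.0.1 and the build GRCm38, per the submitters' processing notes. Counter, annotation and strand setting were not given in the sources used here. For each source the authors deposited a table of raw counts per gene and library. Per the file headers, the tables also hold the authors' normalized signal per group, the authors' log2 ratio of SAF to PF and the deposited FDR, an adjusted p-value. These columns served for the authors' calls and, through the signal, for the authors' scale factors, which were worked out from it and the counts.

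Counts of the 21997 genes in both tables were fitted jointly, leaving out 132 that only the TF table lists and 141 that only the WT table lists. Genes kept by filterByExpr (min.count 10, min.total.count 15; 17925) were tested with edgeR 4.0.16 (R 4.3.3), with TMM factors, 1 mean per group and 4 residual degrees of freedom. The contrasts were stage within source, source within stage and their interaction, with Benjamini-Hochberg adjustment over all genes and a threshold of 0.05. Each gene's spread was moderated towards that of all genes, so tests and intervals of the 10 genes used 9.67 total degrees of freedom. The standard error was taken from the fold change and its F statistic, and the common biological coefficient of variation was 0.303. The fit was tested on simulated data. Per-kilobase levels use the longest GENCODE transcript of each gene.

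The genes and lists were chosen with earlier results of these data known. Beside the 10 markers, the text names up to 6 genes per list with the smallest p, genes at 0 in a group and the 6 genes of most like pattern. Vegfa and 1700066B19Rik were named after their values were seen. Alternatives were RLE factors, the authors' scale factors (stage effects and interaction only, as these are set within each table), no low-count filter, DESeq2 1.42.0, only the libraries compared, a replicate block and each library left out in turn. The labels mention no molecular identifiers, so intervals on counts cover counting error only.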

Additional observations from a re-analysis of the deposited data

Results flagged for a closer look

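Among the vessel-wall genes counted beside the endothelial markers was Des, the muscle intermediate filament desmin of pericytes. By the interaction test, Des changed with the stage by 5.80 more in TF than in WT on the log2 scale (edgeR adjusted p = 0.0447). It was the 1 gene called of 16 mural genes tested, against 0.904% of all genes. None was called among the 10 markers or the further endothelial, transcription factor, ligand, co-receptor and lymphatic genes. Des was at 1.84 and 1.88 CPM in PF-WT, 3.32 and 3.79 CPM in SAF-WT, and 8.35 and 5.74 CPM in SAF-TF. PF-TF held 1 Des count, so the fitted value is no bound. The ratio of the TF group totals was 134.3, with a 95% counting interval of 23.7 to 5347. The log2 fold change in WT was 0.93 ± 0.59. The call was lost with the replicate block (edgeR adjusted p = 0.0880) and when any 1 library other than PF-TF replicate 2 was left out. In those fits with 1 library left out, the difference ran from 5.07 to 6.05. Without PF-TF replicate 2 the call held, with a difference of 8.02. That value is a fit against a lone PF-TF library with no Des count and is no bound.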

How the results depend on the processing

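Of 508 values of single markers under alternative settings, 452 kept their direction and their side of the threshold, 22 lost a call, 11 gained one and 23 turned direction; the cause was not tested. Emcn and Ecscr with the stage in WT and in TF, and Eng with the stage in TF, passed under each of the 10 alternatives run for them. With the authors' scale factors the stage effects in TF were 0.11 for Pecam1 and 0.27 for Tie1. DESeq2 called 1275 genes between the sources in PF (39 with edgeR), 2861 in SAF (1785), with 2 of the markers, and 806 for the interaction (162), with 1 marker. Without the low-count filter 207 genes were called between the sources in PF. A fit of only the libraries compared called 19 genes in PF and 3771 in SAF, with 3 markers.

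Deviations of same-numbered libraries from their group means correlated at -0.12 to 0.113 between groups, so the numbers are not taken to pair the libraries. With the replicate block, 6 genes were called between the sources in PF, 1069 in SAF and 74 for the interaction, and Tie1 stood at 0.17 with the stage in TF; Pecam1 with the stage in WT lost its call (adjusted p = 0.0577).

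With 1 library left out, and a lone library assumed to vary like the other groups, 2 to 3 markers and 3119 to 5268 genes (the fewest without SAF-WT replicate 1) were called with the stage in WT, and 3 to 6 markers in TF. Between the sources 0 to 1 markers and 1 to 865 genes were called in PF (1 without PF-TF replicate 1, 865 without PF-WT replicate 2), and 0 markers and 116 (without SAF-TF replicate 1) to 982 genes in SAF. For the interaction 23 (without SAF-WT replicate 2) to 291 genes (without PF-WT replicate 2) were called. Log2 fold changes that turned direction then ranged as follows. With the stage in WT, Flt1 ran from -0.41 to 1.61 and Tie1 from -0.83 to 0.15. With the stage in TF, Pecam1 ran from -0.92 to 0.28, Tek from -0.31 to 0.55 and Tie1 from -0.98 to 6.63. Between the sources in PF, Cdh5 ran from -6.17 to 0.50 and Tie1 from -5.83 to 1.78; in SAF, Cdh5 ran from -0.046 to 0.28, Kdr from -1.07 to 0.57 and Flt1 from -1.77 to 1.20. For the interaction, Cdh5 ran from -0.33 to 6.35, Emcn from -1.29 to 0.66 and Tie1 from -0.56 to 7.05. The values 6.63, -6.17, -5.83, 6.35 and 7.05 are fits against a lone PF-TF library with no count of the gene and are no bound.

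Tie1, Flt1, Cdh5 and Kdr had few counts, which limits what can be detected for them. Values of the other genes with a test given above were run under the same settings after seeing the data. Of these 319 values, 283 kept direction and call, 36 lost a call and 0 turned direction. With the replicate block Cd34 (adjusted p = 0.0633) and Thbs2 (0.0606) between the SAF groups lost theirs. With the authors' scale factors 6 endothelial transcription factors were called higher and 1 lower in WT. A fit of only the libraries compared called 5 lymphatic genes in WT, and 12 further endothelial and 6 ligand genes between the SAF groups. The authors' scale factors were not run for the source effects, since they are set within each table. DESeq2 gave no adjusted p for Flt1 and Tie1 between the SAF groups.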
